A study of Homo sapiens with 13 samples.

Results

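The compound that the labels abbreviate DEG was compared with the negative control (NC) in serum-starved hFOB 1.19 osteoblasts, an immortalized human fetal osteoblast line. Members were chosen by the treatment label alone: the 2 DEG and 2 NC libraries with a column in the count table, which are 4 of its 12 libraries. The labels list 13 samples, and DEG replicate 3, which has no column, was not analysed here. NC cells received no fetal bovine serum (FBS) and, per the study's methods, the DMSO vehicle. DEG cells were treated at 1 mcg/ml, the concentration shared by the compound groups POG (peonidin-3-glucoside) and RES (resveratrol), each with 3 libraries. The 2 positive control (PC) libraries were grown with 10% FBS. The labels' treatment note names delphinidn-3-glucoside beside the other compounds but does not tie it to the code, so the code DEG is kept. The duration of the DEG treatment is not given in the sources used here. All libraries came from 1 cell line, and the sources used here do not say whether the DEG libraries came from separate cultures (the methods mention triplicate wells for RES and POG). The p-values therefore measure only the spread between these samples, which may be technical.

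Osteoblasts lay down the collagen matrix of bone and also govern its breakdown. They produce the cytokine RANKL (TNFSF11), a membrane protein that can be cleaved to a soluble form, and its decoy receptor osteoprotegerin (TNFRSF11B). They also produce CSF1, IL6 and chemokines that act on osteoclasts and their precursors. Interferon-stimulated genes encode antiviral proteins and are switched on by interferon signalling. NF-kB drives many chemokine genes.

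The 4 libraries held 38464619 to 40043770 counted reads, and the 12 libraries ran from 38464619 to 51416358. Of 43836 genes, 17092 passed the filter on low counts and were tested. The osteoblast label was checked on 12 markers. Their summed level was 5385 to 5450 CPM (a gene's reads relative to the scaled total of its library) in NC and 4867 to 4872 CPM in DEG. Most of this sum came from COL1A1 and COL1A2, so it says little about the other markers. SP7 lay under 1 CPM and IBSP had no reads, while COL1A1, SPARC, RUNX2 and ALPL were detected, ALPL at a mean of 3.973 CPM over the 4 libraries. All 5 osteocyte and all 5 epithelial markers lay under 1 CPM, as did 5 of 6 leukocyte, 4 of 5 adipocyte, 4 of 5 skeletal muscle and 3 of 5 chondrocyte markers. So did 4 of 6 osteoclast and 3 of 6 endothelial markers. Summed endothelial markers stood at 44.85 to 46.92 CPM in NC and 40.16 to 41.33 CPM in DEG, and summed leukocyte markers at 3.67 to 4.286 and 2.531 to 3.078 CPM. Summed osteoclast markers stood at 13.27 to 13.72 CPM in NC and 14.14 to 14.25 CPM in DEG. All libraries came from 1 cell line, so these sums do not show that cells of such types were present. The part these differences play in the results was not tested. In bulk RNA fewer cells expressing a gene and less of its RNA per cell cannot be told apart.

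With DEG, many inflammatory, interferon-stimulated and matrix genes were lower than in NC, and cholesterol synthesis genes were higher by small amounts. Of the 17092 genes, 1647 (9.64%) were called by the exact test of edgeR at a false discovery rate (FDR) under 0.05. Of these, 602 genes (3.52% of those tested) were higher and 1045 (6.11%) lower in DEG. Most of them moved little: the absolute log2 fold change had a median of 0.231 over the called genes, and 1391 (84.5%) changed by less than 0.5. At 0.5 or more there were 53 higher and 203 lower genes, and at 1 or more 18 and 53. Over 11085 genes at 5 CPM or more, the median absolute log2 difference was 0.0486 between the NC libraries and 0.045 between the DEG libraries, against 0.0776 to 0.0817 for a DEG against an NC library. With any 1 of the 4 libraries left out, 856 to 936 genes were called, from 856 without DEG replicate 1 and 893 without DEG replicate 2 to 898 without NC replicate 1 and 936 without NC replicate 2, and 503 genes (114 higher, 389 lower) kept their call every time. The share of called genes that were higher was 36.6% under TMM scaling and 49.4% with plain library totals.

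**Figure D1:**
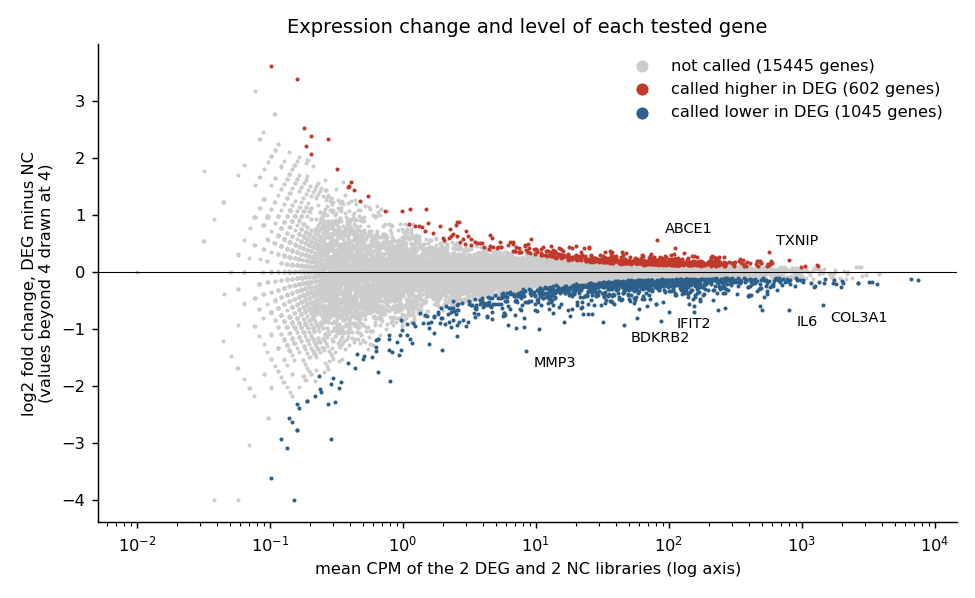
Log2 fold change of DEG over NC (y axis) against the mean level in the 4 libraries in CPM (x axis, log scale) for each of 17092 tested genes, with called genes in colour. The 1045 lower genes reach further from 0 than the 602 higher genes at levels above about 5 CPM, where 93 lower and 8 higher called genes pass 0.5.

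The largest fall by log2 fold change among genes at 5 CPM or more was in MMP3 (stromelysin 1, a protease that degrades matrix proteoglycans and activates collagenases; chr11:102835801-102843609, minus strand, hg38). MMP3 stood at 11.88 and 12.59 CPM in NC and at 4.958 and 4.451 CPM in DEG. Both DEG libraries lay well under both NC libraries, a log2 fold change of -1.38 (SE 0.12, FDR = 3.01e-28). The neighbouring collagenase MMP1 (chr11:102789401-102798160, minus strand) stood at 10.46 and 11.01 CPM in NC and 4.622 and 6.333 CPM in DEG (log2 -0.97, SE 0.138, FDR = 2.97e-10). Both genes overlap WTAPP1 on the other strand, and the strand setting of the counting is not given, so reads of the overlap cannot be assigned. Both receptors for bradykinin, the peptide that causes pain and vascular leakage in inflammation, were among the 12 largest falls. The constitutive receptor BDKRB2 (chr14:96204679-96244166, plus strand) stood at 59.87 and 60.62 CPM in NC and 31.74 and 31.36 CPM in DEG (log2 -0.93, SE 0.0547, FDR = 2.01e-59). The inducible receptor BDKRB1, which lies downstream on the same strand, stood at 6.635 and 5.429 CPM in NC and 3.202 and 3.586 CPM in DEG (log2 -0.83, SE 0.145, FDR = 1.1e-06). Neither gene's groups overlapped, which the rule for picking the 12 falls required.

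The matrix and surface genes of the 12 largest falls moved by similar amounts. CEMIP, a protein needed for hyaluronan breakdown, stood at 111.3 and 112.5 CPM in NC and 61.41 and 62.98 CPM in DEG (log2 -0.85, SE 0.048, FDR = 1.8e-61). ITGA10, the alpha subunit of a collagen-binding integrin, stood at 73.89 and 74.42 CPM in NC and 42.84 and 41.64 CPM in DEG (log2 -0.81, SE 0.0588, FDR = 2.89e-40). SVEP1, a large extracellular adhesion protein, stood at 20.53 and 21.41 CPM in NC and 11.52 and 11.32 CPM in DEG (log2 -0.88, SE 0.089, FDR = 6.02e-20). In all these the DEG pair lay close together and far below the NC pair. MILR1, an inhibitory immunoglobulin-like receptor first described on mast cells, went from 14.46 and 13.67 CPM to 7.411 and 6.664 CPM (log2 -1.0, FDR = 1.85e-15), and the keratin KRT80 from 9.94 and 9.073 CPM to 4.958 and 4.655 CPM (log2 -0.98, FDR = 4.43e-15). IDO1, which starts tryptophan breakdown and is induced by interferon, stood at 8.701 and 11.96 CPM in NC and 5.707 and 6.079 CPM in DEG (log2 -0.81, SE 0.128, FDR = 4.62e-08). Its NC libraries differed more than its DEG libraries. The remaining members were RIPOR3 (log2 -0.93, FDR = 4.65e-10) and the chemokine CXCL3, described with the chemokines. All 12 falls kept their call under the other tests, scalings, filters and dispersions and with each library left out, though only MMP3 and MILR1 reach 1 on the log2 scale.

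The 12 largest rises were smaller, between 0.46 and 0.64 on the log2 scale, and 11 of them lay under 25 CPM. The exception was ABCE1 (chr4:145098288-145129524, plus strand), an ATPase that splits ribosomes after translation ends. ABCE1 stood at 65.16 and 67.84 CPM in NC and 95.24 and 100.2 CPM in DEG, both DEG libraries being higher (log2 0.55, SE 0.0432, FDR = 2.71e-30). It overlaps ANAPC10 and OTUD4 on the other strand. SMAD9 (chr13:36844831-36920887, minus strand), a transcription factor activated by bone morphogenetic protein receptors, stood at 7.177 and 7.49 CPM in NC and 10.85 and 11.22 CPM in DEG (log2 0.59, SE 0.113, FDR = 9.9e-06). IL32, a cytokine, stood at 16.32 and 17.59 CPM in NC and 23.34 and 23.45 CPM in DEG (log2 0.46, SE 0.0801, FDR = 6.04e-07). In each of the 3 genes the groups did not overlap, which the rule for picking the 12 rises required. The phosphodiesterase PDE4C stood at 6.635 and 7.842 CPM in NC and at 10.25 CPM in both DEG libraries (log2 0.50, FDR = 7.19e-05), and CD83, an immunoglobulin-family protein of activated antigen-presenting cells, rose from 6.558 and 7.188 CPM to 9.529 and 9.665 CPM (log2 0.48, FDR = 0.000213). The receptor tyrosine kinase TIE1 (log2 0.50, FDR = 0.000487), ERFL (0.61, FDR = 0.000376) and the non-coding ZNNT1 (0.53, FDR = 0.000283) also rose. The other 4 rises each lost their call when 1 library was left out: DRD4, the dopamine receptor D4 (log2 0.64; FDR = 0.2 without NC replicate 1 and 0.0765 without DEG replicate 1), FAM72D, whose near-identical copies make its count uncertain (log2 0.53; FDR = 0.197 without NC replicate 1 and 0.0732 without DEG replicate 2), LIN7B (log2 0.52; FDR = 0.1 without NC replicate 2 and 0.0861 without DEG replicate 2) and PLEKHG4B (log2 0.47; FDR = 0.121 without NC replicate 1 and 0.337 without DEG replicate 2).

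**Figure D2:**
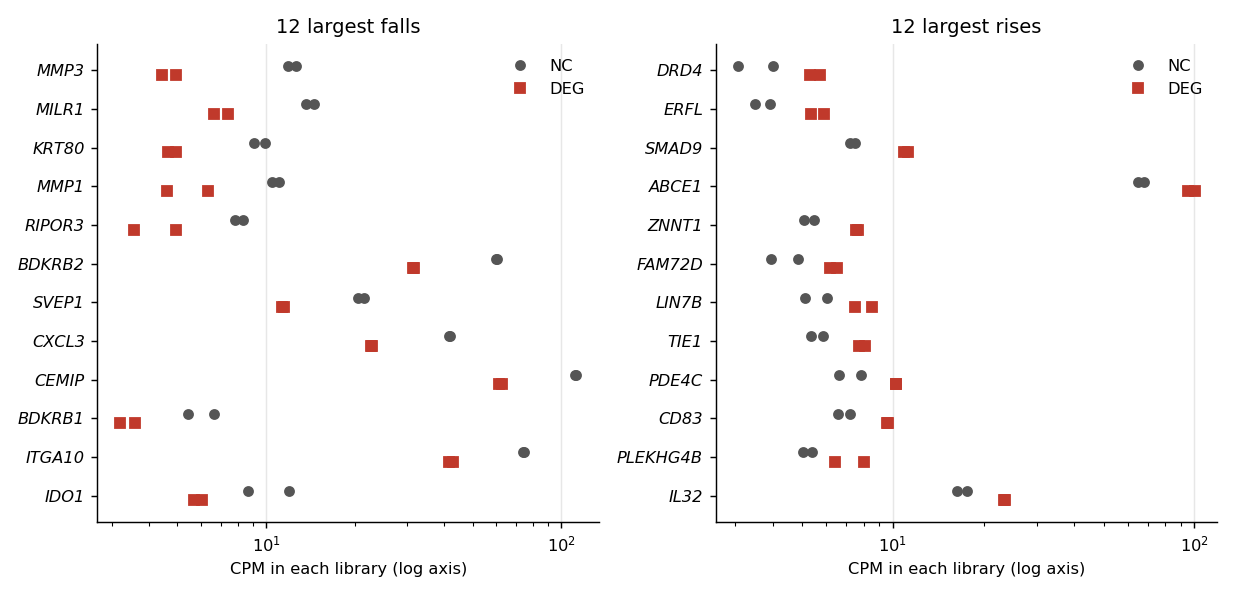
Level in each library in CPM (x axis, log scale) of the 12 largest falls (left) and 12 largest rises (right) among called genes at 5 CPM or more with no overlap between groups; circles are the 2 NC and squares the 2 DEG libraries. The falls are wider apart than the rises, from MMP3 at a log2 of -1.38 to IDO1 at -0.81, and ABCE1 is the only rise above 25 CPM.

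Most interferon-stimulated genes were lower in DEG. Of 28 tested members of the list, 24 (85.7%) were called lower and none higher, against 6.11% and 3.52% of all tested genes. All 28 log2 fold changes were negative, with a median of -0.256 (all tested genes 0.00083). This and the other lists were chosen with earlier results of these data known, so their shares only describe the values. No member was called higher by the quasi-likelihood test or DESeq2 either. Leaving out a library gave 19 to 21 lower calls. Several of these genes carry the interferon-stimulated response element (ISRE), to which interferon-activated factors bind, close to their start. The letters GAAA, any 2 bases, then GAAA were searched on both strands in the 250 bases before the RefSeq gene start. They were found in 14 of the 21 members with such a window (66.7%) and in 3.71% of all 27305 genes with one. The stretches of 4 of them are shown with every match in capitals because their genes fell. IFI6, IFI27 and BST2 also carry the letters and were not called, and IFIT2 had no window. On the other strand the element reads TTTC, any 2 bases, then TTTC.

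IFIT1: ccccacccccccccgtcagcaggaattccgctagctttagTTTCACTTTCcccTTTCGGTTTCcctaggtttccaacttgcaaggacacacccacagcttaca

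IFIT3: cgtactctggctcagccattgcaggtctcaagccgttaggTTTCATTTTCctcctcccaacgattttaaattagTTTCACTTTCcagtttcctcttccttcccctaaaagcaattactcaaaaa

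MX1: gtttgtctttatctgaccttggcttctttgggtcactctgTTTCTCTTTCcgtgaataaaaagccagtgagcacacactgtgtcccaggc

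ISG15: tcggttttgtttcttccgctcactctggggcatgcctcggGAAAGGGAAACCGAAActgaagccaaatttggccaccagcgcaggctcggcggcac

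These are plus-strand sequences from GRCh38.p14: IFIT1 at chr10:89392467-89392569, IFIT3 at chr10:89327801-89327924, MX1 at chr21:41431814-41431903 and ISG15 at chr1:1013344-1013439. IFIT1, IFIT3 and ISG15 hold a pair of matches each, overlapping in ISG15, and MX1 holds 1. The RefSeq start of IFIT1 lies inside the gene position given below, which comes from GENCODE. A match describes letters only and is no measured binding site.

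The IFIT proteins bind foreign RNA and block its translation. IFIT2 (chr10:89283694-89309271, plus strand) had the largest change of the list, from 126.3 and 121.9 CPM in NC to 75.92 and 77.65 CPM in DEG (log2 -0.69, SE 0.0431, FDR = 1.99e-48). IFIT1 (chr10:89392546-89406487, plus strand) stood at 97.13 and 94.23 CPM in NC and 63.81 and 66.28 CPM in DEG (log2 -0.56, SE 0.0427, FDR = 2.71e-31). IFIT3 stood at 198.3 and 200.9 CPM in NC and 145.2 and 141.9 CPM in DEG (log2 -0.48, SE 0.0352, FDR = 5.11e-31). The DEG libraries were the lower pair for each, and the 3 genes share an overlap with LIPA on the other strand. The dynamin-like antiviral GTPases MX2 and MX1 also fell. MX2 stood at 48.23 and 49.51 CPM in NC and 35.43 and 36.52 CPM in DEG (log2 -0.44, SE 0.0545, FDR = 9.65e-13), and MX1 went from 453.8 and 455.8 CPM to 338.8 and 341.7 CPM (log2 -0.42, SE 0.0309, FDR = 6.88e-28). OASL, an RNA sensor cofactor, fell from 179.7 and 185.2 CPM to 135.7 and 134.0 CPM (log2 -0.44, FDR = 5e-25). ISG15, the ubiquitin-like interferon product, fell from 363.0 and 373.9 CPM to 279.2 and 285.9 CPM (log2 -0.38, SE 0.0387, FDR = 5.01e-16). MX1, OASL, ISG15, STAT2, IRF9 and the uncalled members given here were chosen after their values were seen. RSAD2 (viperin), an antiviral enzyme outside the list, stood at 32.53 and 33.33 CPM in NC and 18.88 and 20.55 CPM in DEG (log2 -0.74, SE 0.0621, FDR = 9.25e-29). The transcription factor gene STAT2 fell by 0.18 on the log2 scale, and IRF9 (-0.15, FDR = 0.435) was not called. The other uncalled members were IFI6 (-0.07, FDR = 0.38), IFI27 (-0.10, FDR = 0.179) and BST2 (-0.04, FDR = 0.702). ISG20, IFIT5, IRF1, IRF7, IFIH1, IFI44, GBP2 and XAF1 each lost their call when some library was left out.

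Among chemokines and cytokines of the inflammatory response the calls were also mostly lower. Of 24 tested members, 14 (58.3%) were called lower and 1, IL32, higher, with a median log2 of -0.285; 18 of the 24 were negative. Leaving out a library gave 14 or 15 lower calls. The kappaB letters GGG, any 2 bases, then TTTCC, an element of the kind NF-kB binds, were found on either strand in 8 of 19 members with a window (42.1%), against 2.12% of all 27305 windows. The matches of CXCL1, CXCL3 and IL6, 3 of the larger falls, are shown in capitals. The 8 also include CXCL2, CXCL5 and CXCL6, called lower, IL32, called higher, and CCL20, not called. CCL2 and CXCL12, which were called lower, are not among them.

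CXCL1: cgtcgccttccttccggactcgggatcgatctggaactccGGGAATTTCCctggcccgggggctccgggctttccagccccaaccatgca

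CXCL3: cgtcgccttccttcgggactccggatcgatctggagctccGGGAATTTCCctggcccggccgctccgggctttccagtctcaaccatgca

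IL6: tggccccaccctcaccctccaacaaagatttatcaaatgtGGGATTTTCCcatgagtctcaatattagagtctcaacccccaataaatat

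CXCL1 lies at chr4:73869274-73869363 and IL6 at chr7:22727087-22727176, both plus strand, and CXCL3 at chr4:74038719-74038808, minus strand, in GRCh38.p14. The match begins 79 bases before the RefSeq start of CXCL1, at the same distance in CXCL3, and 73 bases before the RefSeq start of IL6. The RefSeq starts of CXCL3 and IL6 lie inside the gene positions given below, which come from GENCODE.

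CXCL1 and CXCL3, neutrophil attractants that signal through CXCR2, fell by similar amounts. CXCL1 (chr4:73869393-73871308) stood at 614.5 and 618.7 CPM in NC and 385.6 and 391.4 CPM in DEG (log2 -0.67, SE 0.0319, FDR = 2.4e-65). CXCL3 (chr4:74036589-74038807) stood at 42.06 and 41.55 CPM in NC and 22.6 and 22.84 CPM in DEG (log2 -0.88, SE 0.0617, FDR = 3.25e-40). IL6 (chr7:22725884-22732002), the cytokine that drives acute-phase responses and, through osteoblasts, osteoclast formation, stood at 972.4 and 996.1 CPM in NC and 620.5 and 627.9 CPM in DEG (log2 -0.66, SE 0.0303, FDR = 6.7e-66). Within each group the pair of libraries lay close together, and the groups were far apart. CCL2 (chr17:34255274-34257208), the main attractant of monocytes, fell from 287.6 and 286.8 CPM to 178.0 and 185.2 CPM (log2 -0.66, SE 0.036, FDR = 2.06e-57). CXCL12, the stromal factor that holds blood stem cells in the marrow, fell from 22.75 and 22.6 CPM to 13.79 and 12.84 CPM (log2 -0.77, SE 0.0755, FDR = 3.21e-21). CSF3, the granulocyte growth factor, fell from 318.3 and 329.6 CPM to 206.3 and 212.2 CPM (log2 -0.63, SE 0.0336, FDR = 5.36e-57). Falls were smaller in CXCL6 (log2 -0.53), CXCL5 (-0.38), CXCL2 (-0.37), CCL5 (-0.31), IL11 (-0.30), CSF1 (-0.25) and IL1B (-0.22). CXCL8, the neutrophil attractant also called IL-8, fell least among the called members, from 876.6 and 868.3 CPM to 759.8 and 754.1 CPM (log2 -0.20, SE 0.0294, FDR = 1.57e-06). CSF3, CXCL8 and these smaller members were chosen after their values were seen. CCL7, CCL20, CCL26, CSF2, GDF15, IL18, IL1A, LIF and TSLP did not pass the test.

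NF-kB feedback genes split. Of 17 tested, 6 (35.3%) were called higher and 4 (23.5%) lower, with a median log2 of 0.0465. The inhibitor NFKBIA, itself an NF-kB target, fell from 266.2 and 254.2 CPM to 219.2 and 218.9 CPM (log2 -0.25, SE 0.0368, FDR = 1.26e-07). NFKBIZ, a nuclear coactivator needed for IL6 induction, fell from 153.7 and 149.6 CPM to 129.1 and 129.3 CPM (log2 -0.23, SE 0.0364, FDR = 5.59e-07). The ubiquitin ligase BIRC3, by contrast, rose from 35.68 and 37.5 CPM to 44.37 and 42.96 CPM (log2 0.25, SE 0.0523, FDR = 0.000113). The NF-kB subunit RELB rose from 112.3 and 110.5 CPM to 128.1 and 130.3 CPM (log2 0.21, FDR = 0.000223), and the adhesion molecule ICAM1 from 287.9 and 291.4 CPM to 323.8 and 324.0 CPM (log2 0.16, FDR = 0.00022); both were chosen after their values were seen. No groups overlapped in these 5 genes. The share of all tested genes without overlap was not counted, so here and elsewhere a lack of overlap only describes the values. REL (log2 0.24, FDR = 0.0312) lost its call under the quasi-likelihood test and DESeq2. With a library left out, 3 or 4 members were called higher, 3 of them without NC replicate 2 or DEG replicate 2, and 2 (without NC replicate 1) to 4 lower.

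**Figure D3:**
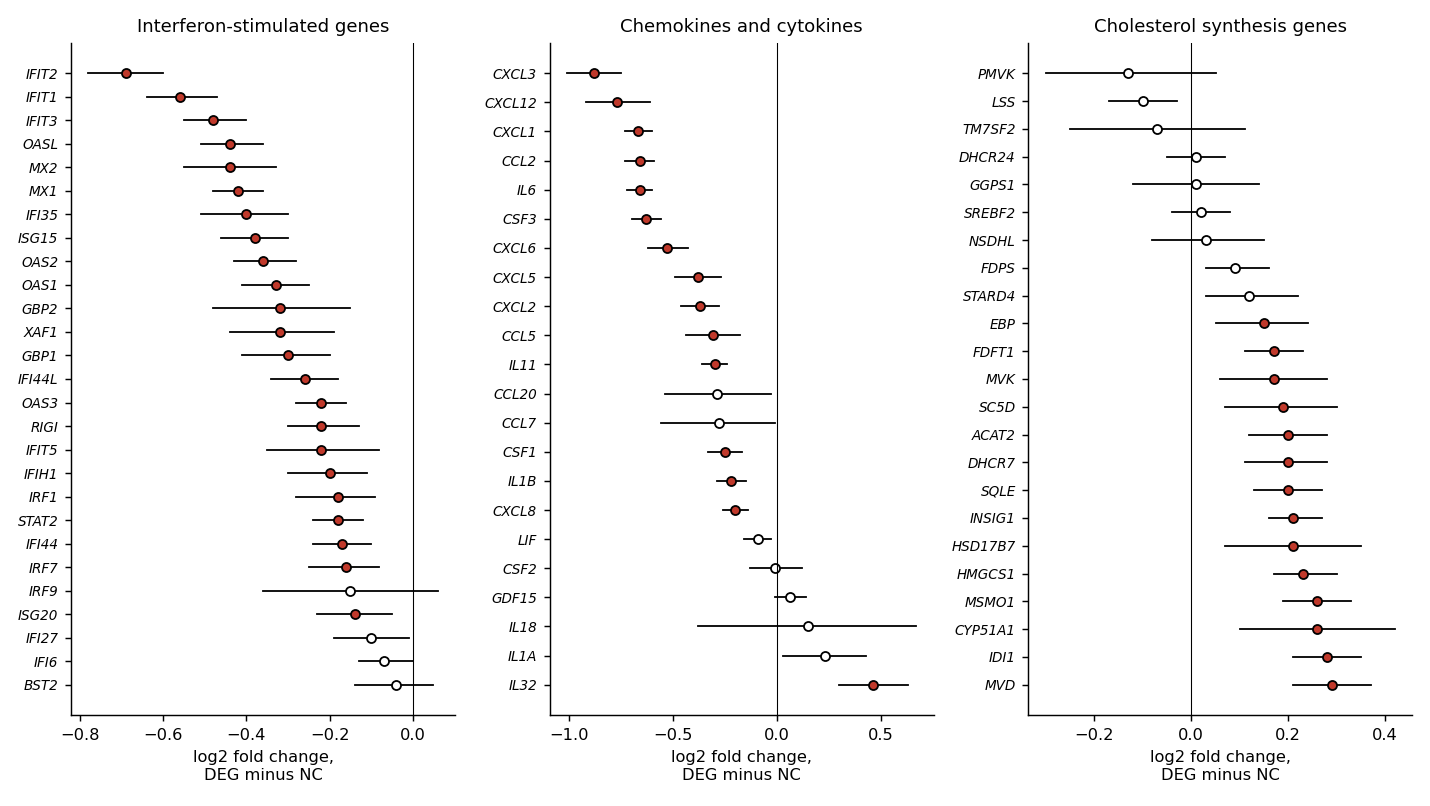
Log2 fold change of DEG over NC (x axis) for tested members, averaging 1 CPM or more in either group, of the interferon-stimulated, chemokine and cytokine, and cholesterol synthesis lists; filled points were called, open points were not, and lines are 95% confidence intervals. Called interferon members all lie left of 0, called cholesterol members all right of 0, and IL32 is the only called chemokine or cytokine on the right.

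Among 29 matrix proteases and inhibitors, 8 (27.6%) were called lower and none higher, and 6 or 7 with a library left out. After MMP3 and MMP1, the largest well-counted change was in TIMP3, the matrix-bound inhibitor of metalloproteinases, which fell from 81.77 and 82.84 CPM to 54.0 and 54.81 CPM (log2 -0.60, SE 0.0436, FDR = 7.95e-34). TIMP3 is encoded inside SYN3, which runs on the other strand. ADAM12, a protease of the cell surface, fell from 65.45 and 66.93 CPM to 52.91 and 52.75 CPM (log2 -0.33, SE 0.0552, FDR = 1.07e-06). The collagenase MMP13 rested on 37 and 52 reads in NC and 20 and 14 in DEG (log2 -1.37, FDR = 0.00152) and lost its call without NC replicate 2 or DEG replicate 2. TIMP2 (log2 -0.24, FDR = 2.86e-09) also fell. Some members stood at like levels in both groups. The gelatinase MMP2 stood at 250.1 and 252.0 CPM in NC and 259.7 and 256.4 CPM in DEG, and the membrane protease MMP14 at 1609.3 and 1589.7 CPM in NC and 1584.2 and 1600.3 CPM in DEG, where the groups overlapped. MMP2 and MMP14 were not called, and they and TIMP2 were chosen after their values were seen.

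Of 22 tested collagen chains, 8 (36.4%) were called lower and none higher, the same count with each library left out, and 14 were not called. The median log2 of the list was small, -0.0939. COL3A1 (type III collagen; chr2:188974373-189012746, plus strand) stood at 1697.7 and 1753.1 CPM in NC and 1146.6 and 1159.7 CPM in DEG (log2 -0.58, SE 0.026, FDR = 1.12e-62). COL12A1, a fibril-associated chain, fell from 80.06 and 81.33 CPM to 61.85 and 60.71 CPM (log2 -0.40, SE 0.0586, FDR = 7.11e-09). COL8A1, a short-chain network collagen, fell from 207.5 and 209.4 CPM to 169.4 and 169.3 CPM (log2 -0.30, SE 0.0354, FDR = 3.86e-12). The type I chains, the main protein of bone, changed less. COL1A1 stood at 2835.4 and 2852.2 CPM in NC and 2504.7 and 2462.6 CPM in DEG (log2 -0.20, SE 0.0237, FDR = 3.81e-07), and COL1A2 at 1329.7 and 1362.7 CPM in NC and 1112.3 and 1129.6 CPM in DEG (log2 -0.26, SE 0.0252, FDR = 2.22e-13). The basement-membrane chain COL15A1 had the largest fold of the list at a low level, from 3.666 and 3.343 CPM to 1.911 and 1.297 CPM (log2 -1.13, SE 0.195, FDR = 3.1e-07), and COL7A1 (-0.22) and COL16A1 (-0.18), named after their values were seen, completed the 8.

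Enzymes that finish collagen moved both ways, with 4 of 23 called higher and 5 lower; the lower calls were 3 without NC replicate 1 and 2 without NC replicate 2 or DEG replicate 1. With all libraries, 17.4% of the list was called higher and 21.7% lower, against 3.52% and 6.11% of all tested genes. The crosslinking enzyme LOXL1 fell from 460.7 and 447.1 CPM to 348.7 and 341.6 CPM (log2 -0.40, SE 0.0342, FDR = 7.83e-21). The prolyl hydroxylase subunit P4HA1 rose from 146.3 and 147.6 CPM to 175.9 and 177.6 CPM (log2 0.27, SE 0.0342, FDR = 2.62e-10). Lysyl oxidase LOX, the relative of LOXL1, rose from 98.91 and 103.8 CPM to 120.0 and 121.3 CPM (log2 0.25, SE 0.0429, FDR = 3.03e-06). The groups of all 3 enzymes were separate, LOX and LOXL1 in opposite directions. The lysyl hydroxylase PLOD1 went from 431.1 and 435.9 CPM to 490.8 and 499.6 CPM (log2 0.19).

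Signals from osteoblasts to osteoclasts were called lower in 11 of 16 tested members (68.8%) and higher in none, with a median log2 of -0.274 and 10 or 11 lower calls with a library left out. Of these 11, CCL2, CXCL8, CXCL12, IL6, IL11 and CSF1 also belong to the chemokine and cytokine list. Osteoprotegerin (TNFRSF11B), which blocks RANKL, stood at 38.37 and 39.84 CPM in NC and 26.96 and 28.92 CPM in DEG (log2 -0.48, SE 0.0566, FDR = 2.7e-14). RANKL itself (TNFSF11) had 24 and 7 reads in NC and 15 and 11 in DEG and was not called (FDR = 0.907). With so few reads and NC libraries so far apart, the missing call does not show an unchanged level. PTHLH, the parathyroid hormone-related peptide, fell from 14.61 and 16.11 CPM to 10.43 and 11.55 CPM (log2 -0.48, SE 0.0924, FDR = 1.2e-05). CSF1, required for osteoclast precursors to survive, fell from 141.9 and 142.0 CPM to 121.8 and 117.0 CPM (FDR = 3.75e-07). The DEG libraries were the lower pair in TNFRSF11B, PTHLH and CSF1. PTGS2, the inducible cyclooxygenase, fell by 0.34 on the log2 scale (FDR = 2.98e-10) and WNT5A by 0.24; PTHLH, CSF1, PTGS2 and WNT5A were chosen after their values were seen. TNFSF10 (TRAIL; log2 -0.88) lost its call without NC replicate 2 or DEG replicate 2.

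Of 10 tested osteoblast markers, 5 were called lower (COL1A1, COL1A2, TNFRSF11B, POSTN, SPP1) and none higher, 3 without NC replicate 2 and 4 without any other library. The matrix protein POSTN went from 84.68 and 90.05 CPM to 75.51 and 75.01 CPM (log2 -0.22, FDR = 0.000319, and 0.0803 without NC replicate 2). Osteopontin (SPP1) stood at 1.988 and 2.337 CPM in NC and 1.188 and 1.348 CPM in DEG, and its call (log2 -0.77, FDR = 0.0321) was lost under the quasi-likelihood test, DESeq2 and each leave-one-out. The transcription factor RUNX2, which commits cells to the osteoblast lineage, stood at 49.49 and 44.71 CPM in NC and 47.57 and 48.45 CPM in DEG, with overlapping groups (FDR = 0.872). Alkaline phosphatase ALPL stood at 4.415 and 3.72 CPM in NC and 3.383 and 4.375 CPM in DEG (FDR = 0.897). SPARC (osteonectin; log2 0.08, FDR = 0.125), osteocalcin BGLAP (FDR = 0.819) and DLX5 (FDR = 0.323) were not called, although SPARC was called higher by DESeq2 and with plain library totals. Among 17 further regulators of osteoblasts, 2 were called lower and none higher.

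Of the 27 tested genes the study discusses, which it chose from comparisons without DEG, with the same NC libraries, 9 (33.3%) were called lower and 1 higher, and with a library left out 5 (without DEG replicate 1) to 8 lower and, without NC replicate 2 or either DEG library, none higher. Cyclin D1 (CCND1), which drives G1 progression, stood at 150.2 and 150.4 CPM in NC and 132.2 and 135.7 CPM in DEG (log2 -0.17, FDR = 0.000582, and 0.06 without DEG replicate 1). HIF1A, the oxygen-sensitive transcription factor, stood at 439.8 and 434.2 CPM in NC and 392.4 and 403.2 CPM in DEG (log2 -0.14, FDR = 0.00314), a call lost without NC replicate 1 or DEG replicate 1. For both the groups did not overlap. TP63 rested on 27 and 13 reads in NC and 4 in each DEG library (log2 -2.28, FDR = 0.00697), a call lost without NC replicate 1 or either DEG library. BCL2, BCL2A1, BCL2L1, BCL2L11, BAX, BAD, BAK1, CASP6, CASP9, IL18, HIF1AN, HIF3A and NOTCH1 did not pass the test. In the wider apoptosis list, 2 of 35 were called higher and 2 lower, shares of 5.71% each beside the background of 3.52% and 6.11%; without either DEG library 1 was higher and none lower, and without NC replicate 2 each count was 1.

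Of 26 tested cholesterol synthesis and uptake genes, 16 (61.5%) were called higher, by small amounts, and none lower; 10 were not called. The median log2 over the list was 0.178, and 22 values were positive. Leaving out a library gave 10 (without NC replicate 1), 11 (without NC replicate 2 or DEG replicate 2) or 13 (without DEG replicate 1) higher calls, while plain library totals gave 18. The quasi-likelihood test gave 13 higher and 1 lower, and DESeq2 14 higher and 1 lower. HMGCS1 (chr5:43287470-43313512, minus strand), a synthase early in the mevalonate pathway, stood at 315.2 and 320.0 CPM in NC and 372.9 and 374.4 CPM in DEG (log2 0.23, SE 0.0314, FDR = 1.06e-08). MVD, which makes isopentenyl diphosphate, stood at 140.3 and 139.5 CPM in NC and 173.6 and 167.7 CPM in DEG (log2 0.29, SE 0.0398, FDR = 2.65e-09). Every DEG library lay above every NC library in both genes. The isomerase IDI1 rose from 190.0 and 189.8 CPM to 230.5 and 230.6 CPM (log2 0.28, SE 0.0335, FDR = 8.24e-12), and the sterol demethylase component MSMO1 from 213.3 and 224.0 CPM to 265.6 and 257.3 CPM (log2 0.26, SE 0.0354, FDR = 4.95e-09). CYP51A1, the lanosterol demethylase, had the same log2 of 0.26, but its call (FDR = 0.0175) was lost without NC replicate 1 (0.199), NC replicate 2 (0.079) or DEG replicate 2 (0.531).

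A protein that holds back the pathway moved in the same direction. INSIG1, which retains the SREBP activator in the endoplasmic reticulum, stood at 726.4 and 751.7 CPM in NC and 861.1 and 853.8 CPM in DEG (log2 0.21, SE 0.028, FDR = 4.8e-08). Its groups did not overlap. The transcription factor SREBF2 (log2 0.02, FDR = 0.802) was not called. LSS, the oxidosqualene cyclase, stood at 314.6 and 324.9 CPM in NC and 298.0 and 298.6 CPM in DEG (log2 -0.10, FDR = 0.0611). HMGCS1, INSIG1 and the uncalled members were chosen after their values were seen. The sterol element letters CACCCCAC were found in 1 of 19 members with a window (5.26%), against 2.97% of all windows. Fatty acid synthesis genes were called higher in 16.7% and lower in 16.7%, against 3.52% and 6.11% of all tested genes. Of 12 fatty acid synthesis genes, 2 were called higher and 2 lower, and 1 and none without NC replicate 2 or either DEG library.

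All 13 tested mitochondrially encoded genes had negative log2 fold changes, with a median of -0.151, and 9 (69.2%) were called lower. With a library left out there were 4 lower calls without NC replicate 1, 6 without either DEG library, 8 without NC replicate 2, and there were 7 with plain library totals. MT-ND6, the complex I subunit encoded on the light strand, stood at 67.2 and 62.68 CPM in NC and 48.21 and 48.22 CPM in DEG (log2 -0.43, SE 0.052, FDR = 3.51e-13). MT-CYB, the cytochrome of complex III, stood at 2167.0 and 2115.4 CPM in NC and 1810.5 and 1773.6 CPM in DEG (log2 -0.26, SE 0.0288, FDR = 1.13e-09). MT-CO2 of complex IV went from 3981.7 and 3952.4 CPM to 3471.9 and 3429.1 CPM (log2 -0.20, SE 0.0293, FDR = 1.49e-05). In all 3 the DEG libraries were the lower pair. Mitochondrial genes took 3.41% and 3.26% of all reads in NC and 3.11% and 3.03% in DEG. Of 28 nuclear genes for respiratory chain subunits, 1 was called higher (none without NC replicate 1 or DEG replicate 2) and none lower, and the median log2 was 0.0504.

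Targets of SRF and YAP, which respond to actin and cell tension, were called lower in 7 of 25 (28.0%) and higher in none, and 5 or 6 with a library left out. Thrombospondin 1 (THBS1, chr15:39581079-39599466, plus strand), a matrix glycoprotein that activates TGF-beta, stood at 188.9 and 193.8 CPM in NC and 118.1 and 116.3 CPM in DEG (log2 -0.71, SE 0.0421, FDR = 2.01e-50). Tropomyosin TPM1 fell from 300.9 and 295.4 CPM to 235.1 and 227.6 CPM (log2 -0.37, SE 0.032, FDR = 9.12e-21). The actin crosslinker FLNA (log2 -0.20, FDR = 3.82e-05) and cytoplasmic actin ACTG1 (-0.18) fell less. The YAP targets CCN1 (log2 0.03, FDR = 0.733) and CCN2 (0.05, FDR = 0.479) were not called against NC.

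Immediate early and MAPK feedback genes were called lower in 9 of 29 (31.0%) and higher in 1. The exception was the zinc finger factor EGR1, which stood at 96.77 and 94.81 CPM in NC and 133.4 and 123.5 CPM in DEG (log2 0.42, SE 0.0419, FDR = 2.14e-18). The early response gene IER3, in contrast, stood at 606.0 and 592.0 CPM in NC and 447.1 and 442.9 CPM in DEG (log2 -0.43, SE 0.032, FDR = 1.29e-26). The MAPK phosphatase DUSP4 went from 42.78 and 42.8 CPM to 31.43 and 32.38 CPM (log2 -0.42, SE 0.0559, FDR = 2.84e-11). EGR1 was thus higher, and IER3 and DUSP4 lower, in both DEG libraries. The transcription factor KLF4 fell from 84.81 and 82.31 CPM to 64.92 and 67.66 CPM (log2 -0.33, FDR = 2.57e-09).

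Of 34 hypoxia and glycolysis genes, 11 (32.4%) were called lower and 6 (17.6%) higher. The angiogenic factor VEGFA stood at 209.2 and 205.6 CPM in NC and 161.3 and 157.7 CPM in DEG (log2 -0.38, SE 0.0331, FDR = 2.74e-21). ANGPTL4, an inhibitor of lipoprotein lipase, stood at 63.82 and 65.6 CPM in NC and 46.66 and 45.48 CPM in DEG (log2 -0.49, SE 0.0564, FDR = 1.66e-14). Carbonic anhydrase CA9 moved the other way at a low level, from 1.627 and 2.086 CPM to 3.667 and 3.179 CPM (log2 0.88, SE 0.192, FDR = 0.000226, and 0.0592 without NC replicate 1). No groups overlapped in these 3 genes. Without NC replicate 1, 2 members were higher and 11 lower; without DEG replicate 2, 3 and 11; and without NC replicate 2, 6 and 8.

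Wnt pathway genes were called lower in 8 of 32 (25%) and higher in none, with a median of -0.0997. The R-spondin receptor LGR6 stood at 2.401 and 3.318 CPM in NC and 0.9038 and 1.323 CPM in DEG (log2 -1.36, SE 0.27, FDR = 1.19e-05). The Wnt antagonist DKK1 stood at 4.312 and 4.248 CPM in NC and 2.582 and 2.62 CPM in DEG (log2 -0.72, SE 0.155, FDR = 0.000142). The receptor FZD4 stood at 42.16 and 44.26 CPM in NC and 29.59 and 31.64 CPM in DEG (log2 -0.50, SE 0.0595, FDR = 6.85e-14). Receptor and antagonist genes were thus both lower. The secreted antagonist SFRP1 (log2 -0.49, FDR = 0.00186) lost its call without DEG replicate 1.

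TGF-beta and BMP pathway genes were called lower in 12 of 38 (31.6%) and higher in none, but in 6 without NC replicate 2 and 8 or 9 without any other library. SMAD9, which bone morphogenetic protein receptors activate and which was called higher, is outside this list. Follistatin FST, which traps activin, fell from 55.82 and 55.57 CPM to 45.76 CPM in both DEG libraries (log2 -0.28, FDR = 1.51e-05). The BMP antagonist GREM1 fell from 1240.3 and 1250.6 CPM to 1097.2 and 1089.2 CPM (log2 -0.19, FDR = 6.15e-07). Calls of the activin receptor ACVR2A (log2 -0.42), the co-receptor TGFBR3 (-0.29) and the ligand TGFB2 (-0.26) were lost when some library was left out.

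Of 30 mitosis genes, 8 (26.7%) were called higher and 1 lower (none lower with any library left out), with 3 higher without NC replicate 1 or DEG replicate 2 and 4 without DEG replicate 1. Of 30 replication genes, 5 (16.7%) were called higher and none lower, with 1 higher without NC replicate 1, 3 without DEG replicate 1 and 2 without DEG replicate 2. The mitotic kinase TTK stood at 72.24 and 67.38 CPM in NC and 84.19 and 82.41 CPM in DEG (log2 0.25, FDR = 5.4e-06). The replication licensing factor CDT1 stood at 184.3 and 188.2 CPM in NC and 215.4 and 212.3 CPM in DEG (log2 0.20, FDR = 4.31e-05). CDK1 stood at 145.3 and 155.7 CPM in NC and 169.8 and 171.1 CPM in DEG (log2 0.18, FDR = 0.00048), a call lost without NC replicate 1. All 3 were higher in both DEG libraries.

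FOXO and starvation targets went both ways, 3 of 16 higher and 4 lower (2 lower without DEG replicate 1). TXNIP, which binds thioredoxin and limits glucose uptake, stood at 494.3 and 502.8 CPM in NC and 625.8 and 641.4 CPM in DEG (log2 0.35, SE 0.0281, FDR = 2.69e-21). PIK3IP1, an inhibitor of PI3 kinase, stood at 15.28 and 16.69 CPM in NC and 21.49 and 21.26 CPM in DEG (log2 0.42, FDR = 2.6e-06). CITED2 (log2 -0.42, FDR = 1.13e-13) and the ubiquitin ligase FBXO32 (-0.33) fell. Elsewhere, the zinc and iron importer SLC39A14 fell from 466.1 and 485.5 CPM to 365.4 and 359.5 CPM (log2 -0.39, FDR = 7.02e-26), DDIT4, an inhibitor of mTORC1, from 186.4 and 189.8 CPM to 147.5 and 149.7 CPM (log2 -0.34, FDR = 9.41e-14), and the Notch target HES4 rose by 0.35 on the log2 scale (FDR = 2.62e-06). The groups of SLC39A14 and DDIT4 did not overlap.

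Other stress lists ranged from no call, in the heat shock list, to lower shares well above the 6.11% of all tested genes. Such shares were seen in aryl hydrocarbon receptor targets, ATF4 targets and lysosome and autophagy genes. In each of these lists the lower calls became fewer when some library was left out. No member of the heat shock list was called among 20 tested, and none had an unadjusted p under 0.05 by the exact test of edgeR; the quasi-likelihood test and DESeq2 also called none, and the median log2 was 0.0177. NRF2 targets were called lower in 2 of 25 (1 without NC replicate 2) and higher in none. The detoxifying enzyme NQO1 stood at 94.11 and 98.52 CPM in NC and 85.37 and 84.82 CPM in DEG (log2 -0.18, FDR = 0.00145, and 0.126 without NC replicate 2). Aryl hydrocarbon receptor targets had 1 of 8 higher (none without NC replicate 1 or DEG replicate 1) and 2 lower (none without NC replicate 2, 1 without either DEG library). Unfolded protein response genes had 1 of 20 higher and ATF4 targets 1 of 25 higher, in both none without NC replicate 2 or either DEG library, and ATF4 targets had 4 lower (2 without NC replicate 1 or DEG replicate 2). Of 43 large-subunit ribosomal protein genes, 42 had a positive log2 fold change, but the median was 0.0448 and 2 were called higher, 1 without NC replicate 2, 0 without any other library and 5 with plain library totals. Lysosome and autophagy genes had 6 of 27 lower calls, 3 without NC replicate 1, 1 without NC replicate 2 and 2 without either DEG library.

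**Figure D4:**
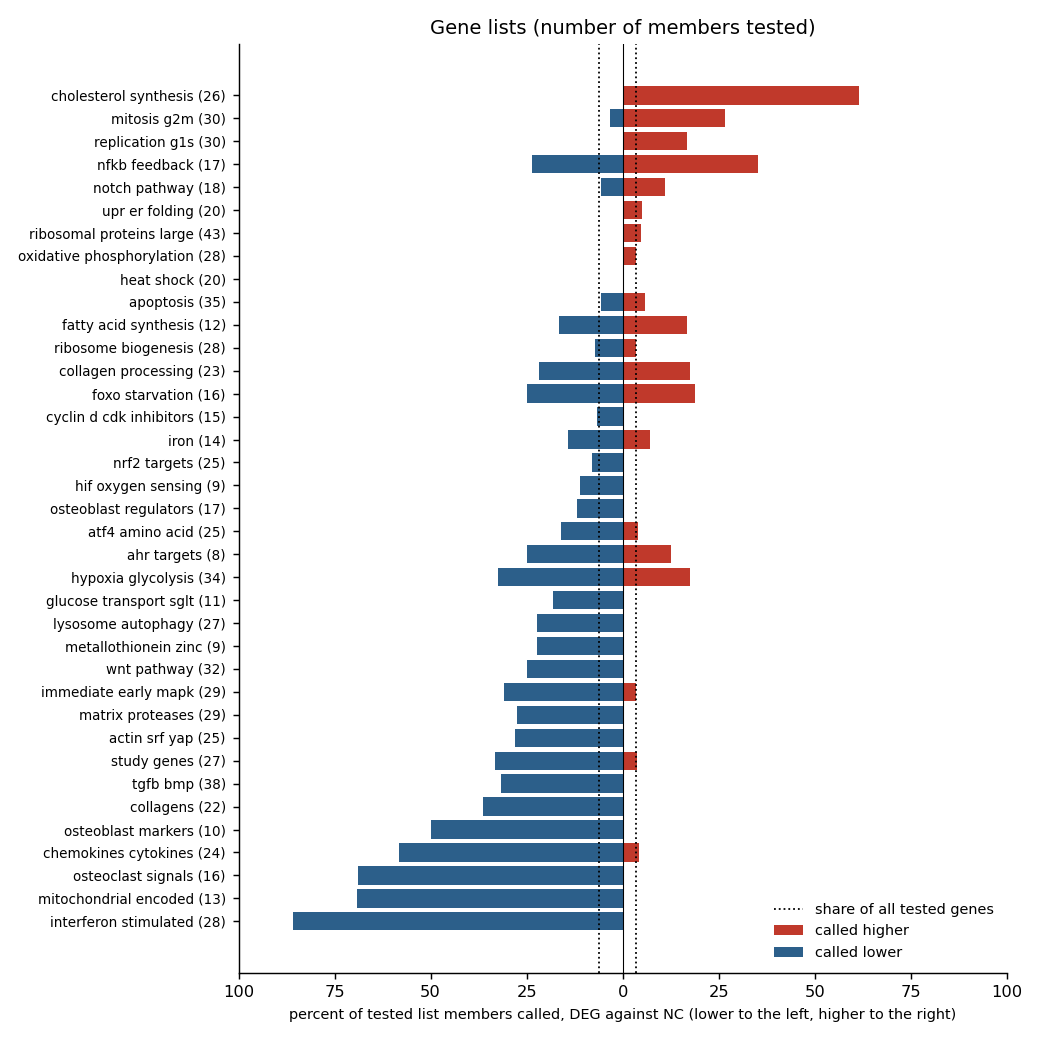
Percent of the tested members of each gene list drawn, called higher (right) or lower (left) in DEG against NC, with the number tested in parentheses; dotted lines mark the 3.52% and 6.11% of all tested genes. Cholesterol synthesis reaches 61.5% on the right, interferon-stimulated genes 85.7% on the left, and heat shock shows no bar.

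DEG was set against each of the other compounds at the same labelled concentration, 2 pairs in all, each adjusted over all 17092 genes. Against POG, 183 genes (1.07%) were called, 98 higher (0.573%) and 85 lower (0.497%) in DEG, with a median absolute log2 of 0.208 over the called genes. That count fell to 31 without DEG replicate 1, 35 without DEG replicate 2, and 94, 97 and 103 without POG replicates 1, 2 and 3. Of the 25 tested actin, SRF and YAP targets, 4 were called higher in DEG than in POG (3 without DEG replicate 1) and none lower. CCN2 (connective tissue growth factor), a YAP target, averaged 167.3 CPM in POG and stood at 235.7 and 227.4 CPM in DEG (log2 0.47, 95% confidence interval 0.41 to 0.53, FDR = 3.64e-38). CCN1, also a YAP target, averaged 363.2 CPM in POG and stood at 474.7 and 472.5 CPM in DEG (log2 0.38, interval 0.33 to 0.44, FDR = 3.48e-28). ANGPTL4, of the hypoxia list, averaged 31.87 CPM in POG and was higher in DEG by 0.53 (interval 0.42 to 0.64, FDR = 9.61e-18). These 3 genes were thus higher with DEG than with POG. TINAGL1 (log2 0.45, FDR = 2.64e-13) and IGFBP6 (0.40, FDR = 3.02e-11) were also higher, and MYO15B (log2 -0.54, FDR = 0.000172) was lower, as were RTN4RL2 (-0.50), GPR162 (-0.45), ERVK13-1 (-0.44) and ST3GAL5 (-0.38). Of the interferon list, 6 of 28 were lower in DEG than in POG and 1 higher, among them MX2 (log2 -0.29, FDR = 3.44e-05); without either DEG library 1 was lower. TGF-beta and BMP genes were higher in 5 of 38 and lower in none, with 1 higher without DEG replicate 1, 2 without DEG replicate 2 or POG replicate 1, and 3 without POG replicate 2 or 3. For several genes with large changes against NC no difference from POG was called. The interval of DEG minus POG ran from -0.07 to 0.05 for CXCL1, 0.01 to 0.13 for IL6 (FDR = 0.435), -0.06 to 0.15 for BDKRB2 and -0.33 to 0.16 for MMP3, the widest of these.

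Against RES, 3630 genes (21.2%) were called, 1772 higher (10.4%) and 1858 lower (10.9%) in DEG. Without DEG replicate 1 or 2 the count was 2067 or 2205. Of the interferon list, 27 of 28 were called lower in DEG than in RES and 1 higher, with a median log2 of -0.449. RSAD2 averaged 41.79 CPM in RES (log2 -1.08, SE 0.0563, FDR = 1.89e-80). Chemokines and cytokines were lower in 16 of 24 and higher in 2 (1 without DEG replicate 2), with IL6 at a log2 of -0.71 and CCL7 at 0.65 (FDR = 1.65e-05). NRF2 targets were higher in DEG than in RES in 17 of 25 and lower in none (median 0.246). Against NC, none of them was called higher in DEG and 2 were called lower (median -0.012). NQO1 averaged 49.92 CPM in RES (log2 0.77, SE 0.0391, FDR = 2.57e-72). PIR (pirin, 0.79, FDR = 6.49e-16), ICAM5 (0.67) and TLCD3B (0.67) were higher, and PTGES, the inducible prostaglandin E synthase (-1.17, FDR = 1.02e-53), LRRC17 (-1.19) and CALHM5 (-1.19) lower in DEG than in RES. Against NC, 2 of 43 ribosomal protein, 8 of 30 mitosis and none of 20 heat shock genes were called higher. A mitosis gene was called lower against NC. Against RES, ribosomal protein genes were higher in 25 of 43, mitosis genes in 17 of 30 and heat shock genes in 6 of 20, with no lower call in these 3 lists. Without DEG replicate 1 the counts for ribosomal protein and mitosis genes were 16 and 11, and without DEG replicate 2 that of ribosomal protein genes was 11.

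**Figure D5:**
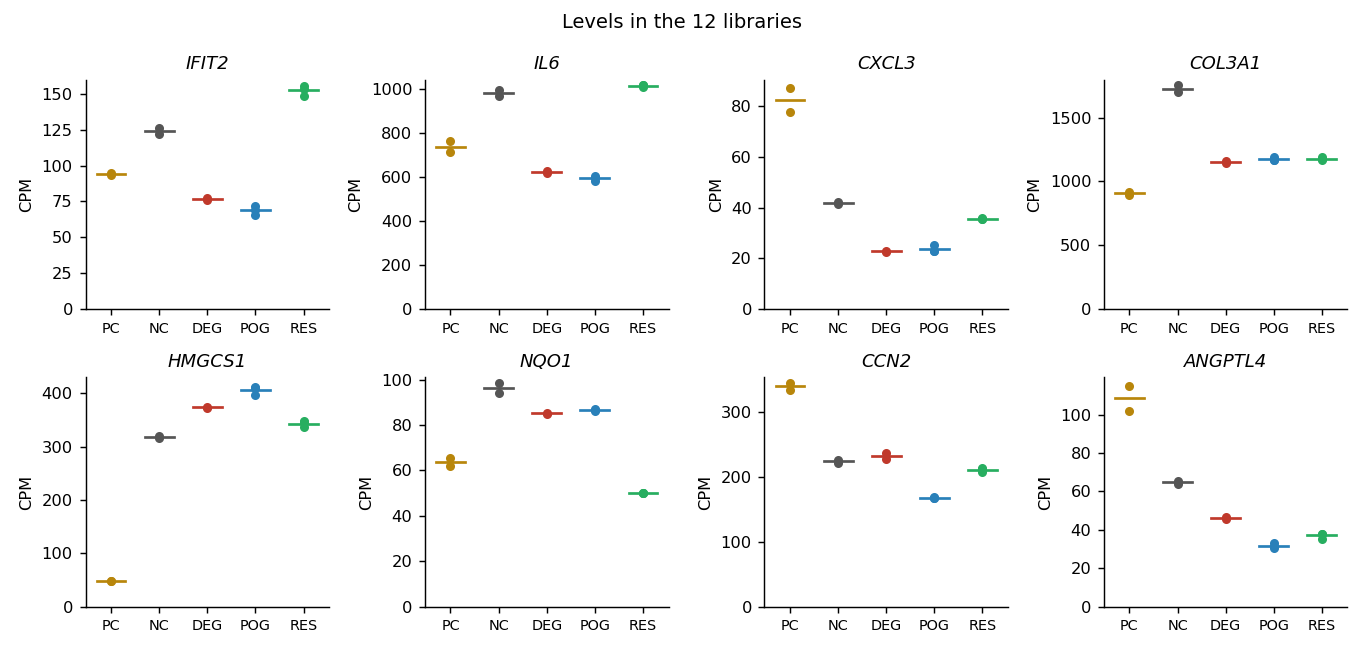
Level in CPM (y axis, from 0) of 8 genes in each of the 12 libraries by group; points are libraries and lines group means. DEG and POG lie close together in IFIT2, IL6, CXCL3 and COL3A1, CCN2 and ANGPTL4 are lower in POG, and NQO1 averages 49.92 CPM in RES, below both.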

How the data were processed

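The deposited values were raw counts, a column for each library, which the authors made from poly-A RNA sequenced as read pairs and did not normalize. Per their methods and processing notes, reads were examined with FastQC, aligned to hg38 with STAR (BWA MEM was also named), counted on Ensembl genes with featureCounts and tested with edgeR. Program versions, the annotation release, and how strand and multi-mapped reads were handled are not given in the sources used here. From the counts, edgeR 4.0.16 in R 4.3.3 computed TMM factors, filterByExpr by group, dispersions over all 12 libraries (biological coefficient of variation 3.2%) and the exact test with Benjamini-Hochberg adjustment, called at an FDR under 0.05. Standard errors and 95% intervals came from its quasi-likelihood fit. CPM used TMM-scaled totals and is not corrected for gene length. Alternatives used DESeq2 1.42.0, other scalings, filters and dispersions, and each library left out. Scripts were tested on simulated data. The intervals include the fitted spread between libraries. Reads carry no molecular identifiers and are not independent molecules.

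Every column of the table belonged to a labelled sample. Symbols and positions (GENCODE v44, hg38) matched 43214 of 43836 identifiers. The 38 pathway and 8 cell type lists were written from general knowledge; 855 of 856 names matched, SOD2 being the exception. Members and lists were chosen with earlier results of these data known. Named genes were the 12 largest rises and falls among called genes with at least 5 CPM in a group and no overlap, up to 4 called members per list at 1 CPM or more, the genes the study discusses, the 5 largest each way against POG and RES, and marker genes. Others were chosen after their values were seen. Some genes that the rule chose are not reported here by name or drawn; they stay in the counts.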

Additional observations from a re-analysis of the deposited data

How the results depend on the processing

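No called gene that the text names reversed under any alternative that gave a value. Of 198 named genes tested, 147 were called; 16 lost their call under another test, scaling, filter or dispersion, 59 with a library left out, and 5 gained one. For DEG against NC, the 1647 calls became 2568 with dispersions from the 2 groups alone, 2595 without PC, 982 at an FDR under 0.01, 71 at an absolute log2 of at least 1, and 856 to 936 with a library left out. For DEG against POG, 183 calls became 103 by the quasi-likelihood test, 117 without a filter on low counts, 837 with dispersions from the 2 groups, 654 without PC, 78 at an FDR under 0.01, 7 at an absolute log2 of at least 1, and 31 to 103 with a library left out. For DEG against RES, 3630 calls became 2407 at an FDR under 0.01, 174 at an absolute log2 of at least 1, and 2067 to 3069 with a library left out. Cause was not tested, except that stricter thresholds give fewer calls by construction. List members called (223 of 785) became 202 to 304 under the other tests, scalings, filters and dispersions and 156 to 165 with a library left out; they were not recounted at an FDR under 0.01 or an absolute log2 of at least 1. No paired analysis was possible because the labels give no replicate numbers and those used here follow accession order. Depth limited genes of few reads, such as TNFSF11, TP63 and MMP13.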
